A study of Rattus norvegicus with 12 samples.

Results

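The miR-378 family was represented in serum extracellular vesicles (EVs) by 2 of the 426 miRs in the count table, rno-miR-378a-3p and rno-miR-378b. They were chosen by the measured counts of miR-378a-3p, which were high enough to compare and differed between rapamycin and vehicle at day 7 but not at day 21, so that its treatment differences are given here as a description, without a test. The EVs came from the serum of 12 female Wistar rats aged 12 weeks, without genetic modification, whose left Achilles tendon had been injured with a needle. Treated animals received 2 mg per kg of rapamycin, an inhibitor of the mTOR kinase, by daily intraperitoneal injection from the day after surgery, with 5 injections by day 7 and 19 by day 21. Control animals received a vehicle of polyethylene glycol and TWEEN 80 in water on the same schedule, and each of the 4 groups held 3 animals. The rapamycin was first dissolved in DMSO, which is not named in the vehicle, so the 2 cannot be told apart. All animals were injured, so no serum of uninjured rats enters the comparisons. The labels give the tissue as tendon, while the RNA was extracted from serum EVs, and 5 miRs abundant in erythrocytes (miR-451-5p, miR-144-3p, miR-144-5p, miR-486 and miR-16-5p) summed to between 27070 and 197930 CPM.

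The gene of miR-378a lies inside Ppargc1b, which encodes PGC-1β, a transcriptional coactivator of mitochondrial biogenesis and fatty acid oxidation. The hairpin gives a 5p and a 3p arm, and miR-378 is known for acting on oxidative metabolism and for its abundance in skeletal muscle, heart, brown fat and liver. In blood, miRs are carried by EVs, by proteins and by lipoproteins, and can derive from many tissues.

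The sequences of the hairpin products are shown because they set which reads could be counted on miR-378a-3p. They are from RefSeq on the GRCr8 build, in which 385 of the 426 miRs had a mature sequence, and capitals mark the seed, bases 2 to 8, which pairs with target transcripts.
miR-378a-3p: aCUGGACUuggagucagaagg
miR-378a-5p: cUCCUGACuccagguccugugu
miR-3557-5p: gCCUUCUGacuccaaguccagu
The 3p arm stood at chr18:57128925-57128945 and the 5p arm at chr18:57128962-57128983, both on the minus strand. Their hairpin, Mir378, began 2480 bases inside Ppargc1b (chr18:57029264-57131466, minus strand). A location inside a protein-coding gene was shared by 51.7% of the 385 located miRs. Another hairpin, Mir3557, lay across the same bases on the plus strand, and its miR-3557-5p held the reverse complement of all 21 bases of miR-378a-3p. The count table had no row for miR-3557. Mir378b lay on chromosome 5 (chr5:10729798-10729881) within Ncoa2, which encodes another coactivator of nuclear receptors. Of the other miRs with a sequence, which did not include miR-378b, 0 shared the seed CUGGACU, and the nearest in sequence, miR-138-5p and miR-345-3p, were 8 edits away from miR-378a-3p. Reads were assigned to miRBase allowing 1 mismatch, so how reads were divided between miR-378a-3p and miR-378b remains uncertain.

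The study's supplement lists 10 of the 12 libraries, leaving out rapamycin day 7 replicate 2 and vehicle day 7 replicate 1. The listed libraries held 16327 to 51391 miR counts and 189 to 263 miRs, and the others held 51431 and 95834 counts on 317 and 354 miRs. Of the miR and spike-in counts together, synthetic spike-ins took 52.5% to 71.8% in the listed libraries but 24.3% and 13.6% in the unlisted ones. Reads on other RNA are not part of these counts. Both unlisted libraries were from day 7, so each result below is given for the 10 libraries and then for all 12. A level of 3 counts, the least regarded here as detectable, corresponded to 31.3 to 184 CPM across libraries. CPM is the count scaled to the miR total of its library, with TMM factors over the 12 libraries except in this detection limit.

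miR-378a-3p was among the more abundant miRs, at 3744 ± 3130 CPM (SD, n = 10), which placed it at rank 48 of the 365 miRs counted in the 10 libraries. The next miR above was miR-181b-5p at 3968 ± 1122 CPM, and the next below was let-7c-5p at 3722 ± 3096 CPM, which did not differ from it beyond their spread. Within single libraries its rank ran from 13 to 76. With rapamycin at day 7, miR-378a-3p stood at 4194 CPM (137 counts) and 11803 CPM (277 counts) in the listed libraries and at 9743 CPM (632 counts) in the unlisted one. With vehicle at day 7 it stood at 3660 CPM (145 counts) and 2652 CPM (119 counts) in the listed libraries and at 18415 CPM (2198 counts) in the unlisted one. Among the listed libraries both rapamycin values exceeded both vehicle values, while the highest of all 12 values was a vehicle value. At day 21 the levels were 1332 CPM (21 counts), 3703 CPM (89 counts) and 804 CPM (19 counts) with rapamycin. With vehicle they were 2091 CPM (58 counts), 2086 CPM (52 counts) and 5118 CPM (125 counts). The groups overlapped at day 21, and the lowest pair of libraries in the series was of rapamycin-treated animals at this timepoint.

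**Figure D1:**
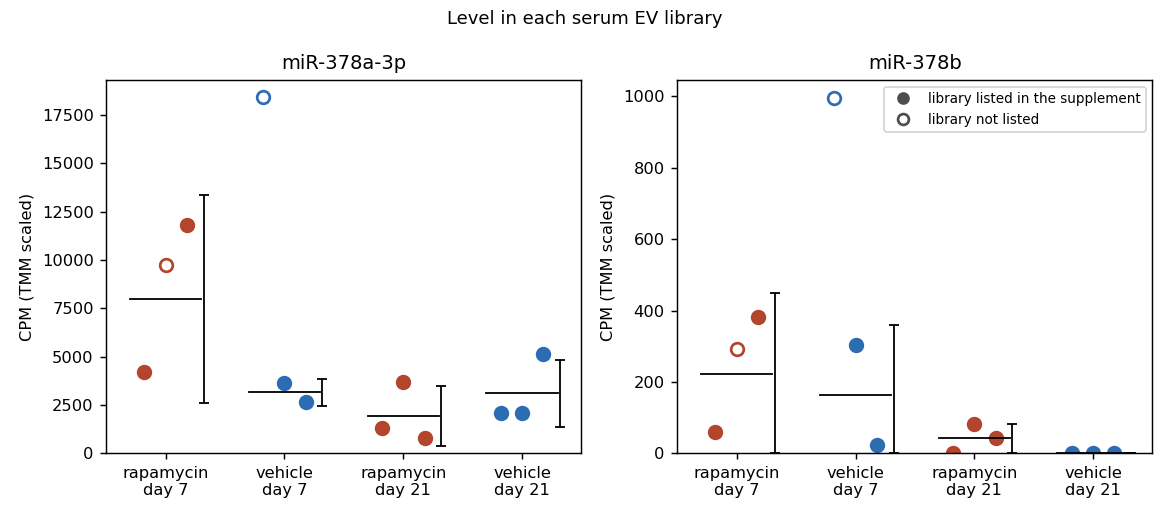
Level of miR-378a-3p (left) and miR-378b (right) in CPM in each serum EV library by treatment and day, with filled points for the 10 listed and open points for the 2 unlisted libraries, black lines for the mean of the listed libraries and bars for ± 1 SD, not drawn below 0. The unlisted vehicle library at day 7 was the highest for both miRs, at 18415 and 997 CPM.

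In the 10 libraries, mean miR-378a-3p was 7999 ± 5380 CPM with rapamycin and 3156 ± 713 CPM with vehicle at day 7 (SD, n = 2 each). The log2 fold change fitted by edgeR was 1.39 (SE 0.50), and it is the difference for which the miR was chosen. The SE depended on the fit. It was 0.74 after a filter against rarely counted miRs (filterByExpr, log2 fold change 1.38) and 0.72 with DESeq2's Wald test (1.54). The pooled SD of log2 CPM within groups was 0.86 for this miR. Every rapamycin library lay above every vehicle library at day 7 for 13.7% of the 365 miRs, and 0.548% of them were called at this timepoint. In all 12 libraries the means were 8580 ± 3935 CPM and 8243 ± 8824 CPM (SD, n = 3 each), with a log2 fold change of 0.053 (SE 0.50), and an order with every rapamycin library above every vehicle library was left to 0.939% of 426 miRs, miR-378a-3p not among them. The unlisted libraries thus raised the vehicle mean above its value in the 10 libraries and left the rapamycin mean close to it. Without rapamycin day 7 replicate 3, the log2 fold change in the 10 libraries was 0.49. At day 21 the means were 1946 ± 1544 CPM with rapamycin and 3098 ± 1749 CPM with vehicle (SD, n = 3 each). The log2 fold change was -0.56 (SE 0.41) in the 10 libraries and -0.66 (SE 0.52) in all 12. Without rapamycin day 21 replicate 2 it was -1.44, and without vehicle day 21 replicate 3 it was -0.086.

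The summed level of 3 liver-enriched miRs, miR-122-5p, miR-192-5p and miR-194-5p, was ordered like miR-378a-3p at day 7. It was 10042 and 10141 CPM in the listed rapamycin libraries and 3938 and 4056 CPM in the listed vehicle libraries. In the unlisted libraries the sum was 8679 CPM with rapamycin and 10766 CPM with vehicle. Most of each listed sum was miR-122-5p, at 8848 and 7798 CPM with rapamycin and at 3231 and 3432 CPM with vehicle. In the 10 libraries, 13.7% of 365 miRs had each rapamycin value above each vehicle value at day 7. Of 6 miRs enriched in skeletal or cardiac muscle, miR-133a-3p had 1026 counts and miR-133b-3p 26 counts in vehicle day 7 replicate 1, the library with the most miR-378a-3p. The summed level of the 6 was 8881 CPM there and 0 to 1872 CPM in the other libraries. Both miR-133b-3p and miR-206-3p were at 0 in every listed library, as was the cardiac miR-208a-3p. The part of these tissues in the level of miR-378a-3p was not tested.

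Spike-in calibrators, added in known amount, gave a second scale, counts per 1000 calibrator counts. With rapamycin at day 7, miR-378a-3p stood at 6.32 and 12.7 on this scale in the listed libraries and at 68.0 in the unlisted one. With vehicle at day 7 it stood at 5.40 and 3.66 in the listed libraries and at 293 in the unlisted one. With rapamycin at day 21 it stood at 0.882, 4.30 and 0.776, and with vehicle at 2.72, 2.27 and 4.77. The listed libraries kept the order of treatments seen in CPM at day 7, whereas the unlisted ones stood above every listed library. All miRs together stood at 0.686 to 1.58 counts per calibrator count in the listed libraries and at 5.53 and 12.8 in the unlisted ones. The study cautions that size exclusion chromatography by itself may be insufficient for isolating EVs, which it could not characterise fully. Fewer vesicles, fewer copies of a miR per vesicle and a change in other carriers thus cannot be told apart.

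**Figure D2:**
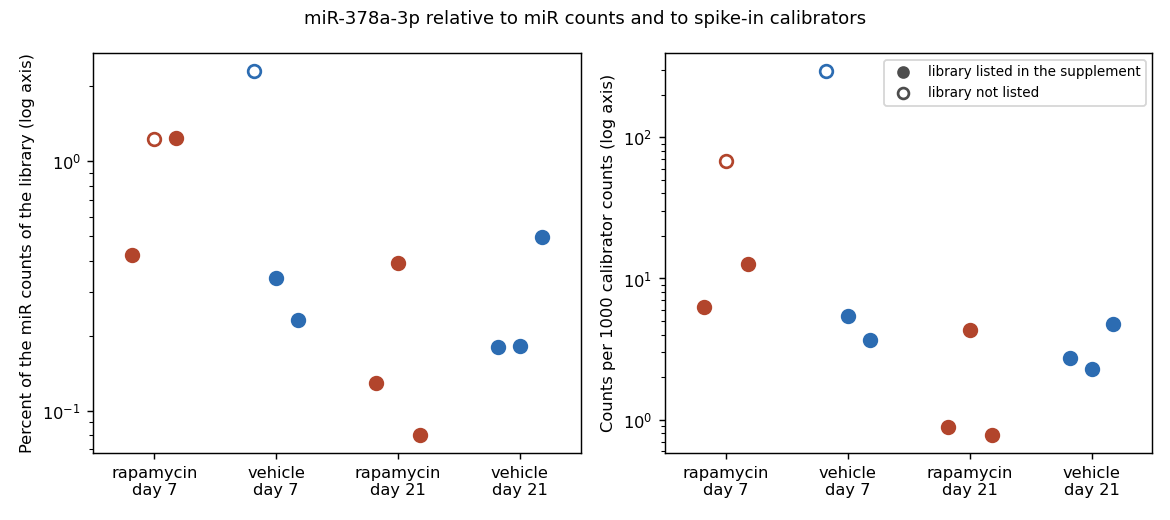
miR-378a-3p in each library as a percent of the miR counts of that library (left, log axis) and as counts per 1000 calibrator counts (right, log axis), with filled points for listed and open points for unlisted libraries. The unlisted libraries stood at 68.0 and 293 per 1000 calibrator counts, above the highest listed value of 12.7.

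The difference between days, averaged over treatments with equal weight, is another contrast than those the members were chosen on, but it draws on the same libraries. The high rapamycin values at day 7 enter it, so that its p-values for miR-378a-3p are not independent of that choice and describe these libraries. In the 10 libraries, miR-378a-3p was 5577 ± 4199 CPM at day 7 (SD, n = 4) and 2522 ± 1605 CPM at day 21 (SD, n = 6). The log2 fold change from day 7 to day 21 was -0.99 (SE 0.32), which did not pass the test (edgeR quasi-likelihood, unadjusted p = 0.00177, Benjamini-Hochberg adjusted p = 0.129 over 365 miRs). Its rank by p was 5 of 365, where 0.274% were called and the median log2 fold change was -0.054, and 3.84% were lower at an unadjusted p below 0.05. After a filter against rarely counted miRs (filterByExpr), the log2 fold change of miR-378a-3p was -0.96 (SE 0.47, edgeR unadjusted p = 0.0677). An exact permutation test of day labels within treatments gave p = 0.15 (two-sided, 100 arrangements, smallest possible p 0.01). The call depended on single libraries, since the adjusted p from edgeR was 0.0221 without rapamycin day 7 replicate 1 (log2 fold change -1.34), 2.79e-05 without rapamycin day 21 replicate 2 (-1.46) and 0.00956 without vehicle day 21 replicate 3 (-1.32).

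In all 12 libraries, miR-378a-3p fell by 1.77 on the log2 scale from day 7 to day 21 (SE 0.37, edgeR adjusted p = 0.000241), from 8411 ± 6114 CPM to 2522 ± 1605 CPM (SD, n = 6 each). Its rank by p was 3 of 426, where 3.52% were called, 10.6% were lower at an unadjusted p below 0.05 and the median of all miRs was -0.57. The exact permutation test gave p = 0.035 (two-sided, 400 arrangements, smallest possible p 0.005). The fall remained past the threshold in each of 12 fits that left out a single library. It was smallest without vehicle day 7 replicate 1, at -1.07 (edgeR adjusted p = 0.0416). It was not called with DESeq2's Wald test (adjusted p = 0.0638) or limma-voom (adjusted p = 0.124) in the 12 libraries. Within treatments, values that share the libraries of the rule, the log2 fold change from day 7 to day 21 was -1.96 (SE 0.45) with rapamycin and -0.012 (SE 0.45) with vehicle in the 10 libraries. In all 12 it was -2.13 (SE 0.53) with rapamycin and -1.42 (SE 0.52) with vehicle. Every rapamycin library at day 7 lay above every rapamycin library at day 21, an order shared by 11.2% of miRs in the 10 libraries and 7.28% in the 12.

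**Figure D3:**
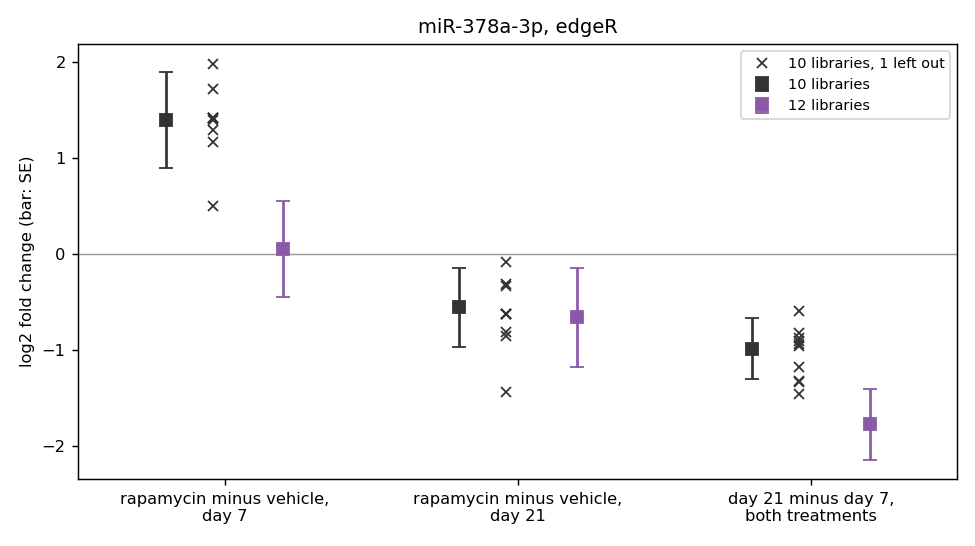
edgeR log2 fold changes of miR-378a-3p (y axis) for each treatment contrast and for the contrast of days, with squares and SE bars for 10 and for 12 libraries and crosses for fits that left out 1 of the 10. The day 7 treatment difference moved from 1.39 with 10 libraries to 0.053 with 12, and the difference between days stayed below 0.

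Beside the contrast of days, 1 of 3 liver-enriched miRs fell in the 10 libraries, namely miR-122-5p. It was the single miR called, so the 0.274% of all miRs called lower is this same call. There miR-194-5p had an SE of 1335, so its log2 fold change could not be judged. In the 12, 2 of 3 fell, miR-122-5p and miR-192-5p, against 3.29% of all miRs. In each set 2 of the 3 had an edgeR unadjusted p below 0.05, against 19 of all 365 miRs and 56 of all 426. The summed level of the liver-enriched miRs in the listed libraries ran from 3938 to 10141 CPM at day 7. At day 21 it ran from 0 to 6223 CPM. Of the 6 muscle-enriched miRs, 4 could be fitted in the 10 libraries and 0 were called (edgeR, with 0 below an unadjusted p of 0.05). In the 12 libraries 1 of 6 fell, namely miR-133a-3p, and 2 of 6 had an edgeR unadjusted p below 0.05. The 5 erythrocyte miRs and 5 leukocyte and platelet miRs gave 0 calls with edgeR in either set. In the 10 libraries, 1 and 0 of them had an unadjusted p below 0.05, against 19 of all 365 miRs. In the 12, 3 and 0 did, against 56 of all 426. These erythrocyte miRs had log2 fold changes above 0, opposite in sign to miR-378a-3p, at 0.50 for miR-486 in the 10 and at 0.84 for miR-486, 0.69 for miR-451-5p and 0.88 for miR-144-5p in the 12. DESeq2's Wald test and limma-voom called 0 of all 365 miRs in the 10 libraries, and 4 and 0 of all 426 in the 12.

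miR-378b was counted far less often, at 89.5 ± 138 CPM (SD, n = 10) and rank 187 of 365. At day 7 it had 2 and 9 counts with rapamycin and 12 and 1 counts with vehicle in the listed libraries. The unlisted libraries held 19 counts with rapamycin and 119 with vehicle. At day 21 it had 0, 2 and 1 counts with rapamycin and 0 counts in each vehicle library, whose 25032 to 32126 miR counts allow a share of up to 0.00934% to 0.0120%. The treatments overlapped at day 7, and at day 21 every library was at or under the detection limit of 3 counts, so no fold change is given there. The day 7 log2 fold change was 0.47 (SE 1.60) in the 10 libraries and -0.87 (SE 1.03) in all 12, so that its sign depended on the libraries used.

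Summed over treatments, miR-378b had 24 counts at day 7 and 3 at day 21 in the 10 libraries, in totals of 148712 and 148740 miR counts. Its share of miR counts was thus 8.0-fold higher at day 7 (exact 95% interval 2.43 to 41.5, counting error only). Tested over animals, this did not pass (edgeR unadjusted p = 0.00481, adjusted p = 0.251 over 365 miRs), at rank 7 by p. The exact permutation test of the log2 level gave p = 0.02 (two-sided, smallest possible p 0.01). With all 12 libraries the counts were 162 and 3, a ratio of 27.1 (9.12 to 133, counting error only), and the fall was called (edgeR adjusted p = 0.00152, and exact permutation p = 0.01). Without vehicle day 7 replicate 1, which held 119 of the 162 counts, the edgeR adjusted p was 0.0916. In all 12 libraries, limma-voom did not call it either (adjusted p = 0.107), while DESeq2's Wald test did (adjusted p = 0.0279). The permutation tests were made on both members, and their p-values are not adjusted. All p-values of miR-378b draw on the same libraries as those of miR-378a-3p, and reads may be shared between the members. They are thus not independent of those of miR-378a-3p or of the choice of the members.

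**Figure D4:**
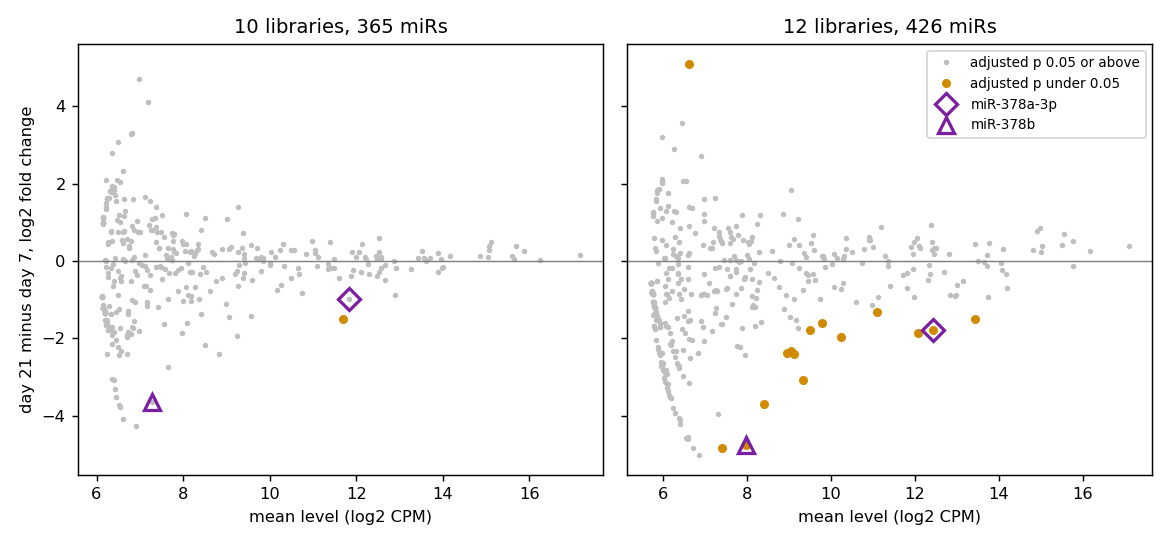
Difference between day 21 and day 7 averaged over treatments (y axis, log2 fold change) against mean level (x axis, log2 CPM) for each miR in the fits of 10 libraries (left) and 12 libraries (right), with called miRs in orange and miR-378a-3p and miR-378b as open symbols. Both members lay below 0 in each fit and were called in the fit of 12, where the median of all miRs was -0.57.

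As a share of both members, miR-378b made up 3.42% at day 7 in the listed libraries (24 of 702 counts, 95% Wilson interval 2.31% to 5.04%) and 0.817% at day 21 (3 of 367, 0.278% to 2.38%). In the unlisted libraries it made up 4.65% (138 of 2968, 3.95% to 5.47%). The intervals of both days in the listed libraries overlapped slightly, and they cover counting error only. With the counts of both members summed, the log2 fold change between days in the 10 libraries was -1.03 (edgeR adjusted p = 0.0852). The log2 levels of the members correlated at r = 0.62 (Spearman's rho 0.49) over the 10 libraries and at r = 0.79 over the 12, which share library totals.

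The other arm of the hairpin was near absent. miR-378a-5p had 10 of the 3882 counts on both arms over all 12 libraries, with at most 4 in a library. Its share was 0.258% (95% Wilson interval 0.140% to 0.474%). With levels near the detection limit in every group, no fold change is given.

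The 5 miRs most like miR-378a-3p in their pattern were found by Pearson's r of log2 CPM over the 10 libraries among the 74 miRs that reached 10 counts in every library. These were miR-22-3p (r = 0.83), miR-99a-5p (r = 0.82), miR-30d-5p (r = 0.79), miR-27b-3p (r = 0.79) and miR-30a-5p (r = 0.76). Over all 12 libraries, the same pairs gave r of 0.80, 0.88, 0.90, 0.87 and 0.89. The points share the depth and composition of each library, and the correlations are a description. The sequences available for these miRs are shown so that their seeds can be set against CUGGACU.
miR-22-3p: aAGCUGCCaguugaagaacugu
miR-27b-3p: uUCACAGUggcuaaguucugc
miR-30a-5p: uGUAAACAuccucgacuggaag
The seeds of these 3 differed from that of miR-378a-3p and from each other, and miR-99a-5p and miR-30d-5p were not compared. Of the 5, only miR-99a-5p was called between days in the 12 libraries (log2 fold change -1.51, SE 0.35, edgeR adjusted p = 0.00138), where 3.52% of 426 miRs were called. It was not called in the 10. The study called miR-99a-5p higher with rapamycin over both timepoints. The 5 were picked for their likeness in these same libraries. miR-27b-3p, known for restraining adipocyte differentiation, was also in the metabolic list described next, with a log2 fold change between days of -0.50 (SE 0.28) in the 10 libraries.

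**Figure D5:**
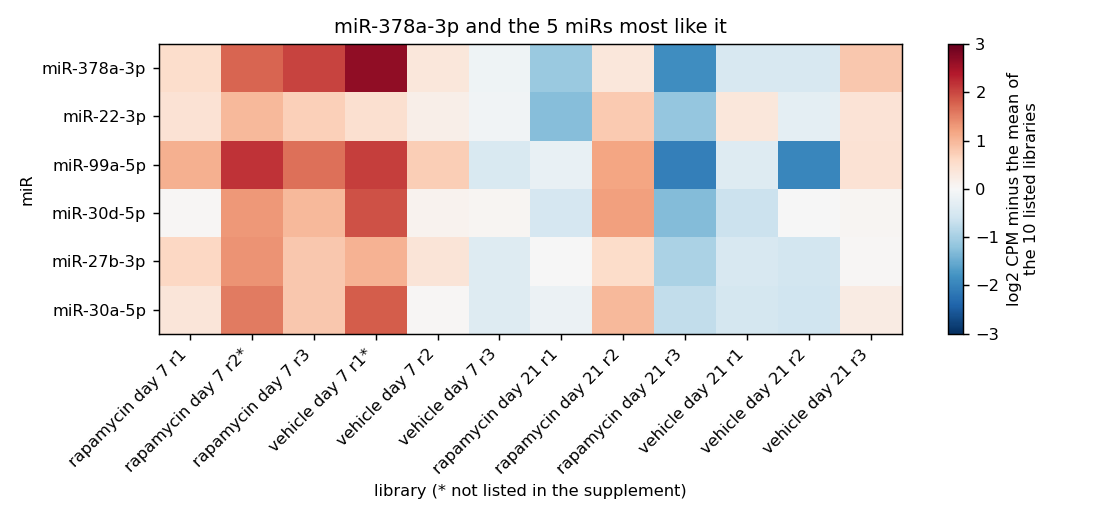
miR-378a-3p and the 5 miRs most like it (rows) in each of 12 libraries (columns), coloured by log2 CPM minus the mean of the 10 listed libraries for that miR. Rapamycin day 21 replicate 3 lay below that mean, and both unlisted day 7 libraries, marked with an asterisk, above it, for every miR shown.

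A list of 34 miRs known for roles in lipid, glucose, muscle or adipose metabolism was set beside both members. It includes miR-378a-5p, the other arm of the same hairpin. The most abundant were miR-21-5p at 81420 CPM, miR-103-3p at 30876 CPM and miR-143-3p at 17155 CPM, each a mean of the 10 libraries and above miR-378a-3p. In the 10 libraries 31 could be fitted, and edgeR called 0 of 31 between treatments at day 7 and 0 of 31 at day 21. Of all 365 miRs, 2 were called at day 7 and 0 at day 21, with 14 and 15 below an unadjusted p of 0.05. In the list, 3 were below it at each timepoint. Among those at day 7 was miR-122-5p (log2 fold change 1.37, SE 0.50, edgeR unadjusted p = 0.00687, adjusted p = 0.421 over 365 miRs). The study removed low-abundance miRs before adjustment, and it called miR-122-5p at day 7. Over both timepoints the study called miR-133a-3p and miR-34a-5p from this list. Here, DESeq2's Wald test and limma-voom called 0 of all 365 miRs at either timepoint. The median log2 fold change of the list at day 7 was 0.27, against 0 over all 365 miRs. In all 12 libraries edgeR called 0 of 34 at either timepoint, with 2 below an unadjusted p of 0.05 at each. Of all 426 miRs, 0% were called, with 8 at day 7 and 12 at day 21 below that unadjusted p. There the median of the list at day 7 was -0.048, against -0.070 over all miRs.

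Between days, 1 of the 31 metabolic miRs fell in the 10 libraries and 0 rose, against 0.274% of all 365 miRs called lower, and the median of the list was 0.025 against -0.054 over all 365 miRs. The miR that fell was miR-122-5p, a liver-enriched regulator of cholesterol and fatty acid synthesis, which was the single miR that edgeR called and was not called by DESeq2's Wald test or limma-voom. At day 7 it stood at 8848 and 7798 CPM with rapamycin and at 3231 and 3432 CPM with vehicle in the listed libraries, while the unlisted rapamycin library held 7215 CPM and the unlisted vehicle library 9375 CPM. At day 21 it stood at 381, 3994 and 0 CPM with rapamycin and at 1226, 201 and 5240 CPM with vehicle. The days overlapped, and the log2 fold change was -1.50 (SE 0.32, edgeR adjusted p = 0.00136) in the 10 libraries and -1.85 (SE 0.38, edgeR adjusted p = 0.000241) in the 12. As with miR-378a-3p, the highest value at day 21 was that of vehicle replicate 3 and the lowest that of rapamycin replicate 3.

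In the 12 libraries 3 of the 34 metabolic miRs fell between days and 0 rose, against 3.29% of all 426 miRs called lower. The median of the list was -0.61 and that of all miRs -0.57. The miRs called beside miR-122-5p were miR-133a-3p, a regulator of muscle differentiation (log2 fold change -1.97, SE 0.48, edgeR adjusted p = 0.00287), and miR-802-5p, known for impairing hepatic insulin signalling (-2.31, SE 0.62, edgeR adjusted p = 0.00929). In the 10 libraries neither was called, with log2 fold changes of 0.30 (SE 0.64) for miR-133a-3p and -1.36 (SE 0.75) for miR-802-5p. In vehicle day 7 replicate 1, miR-133a-3p stood at 8596 CPM, against 0 to 1872 CPM in the other libraries. There miR-802-5p stood at 1550 CPM, against 0 to 1079 CPM elsewhere.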

How the data were processed

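Small RNA from serum EVs of 12 rats was sequenced, and the authors deposited a table of raw counts per mature rat miR and spike-in. Per the labels and the study's methods, EVs were isolated by size exclusion chromatography, adapters were trimmed with cutadapt (3.3), reads under 17 nt were removed, and reads were mapped with Bowtie (1.3.0) to the rat genome mRatBN7.2 (2 mismatches) and assigned with miRDeep2 to miRBase (1 mismatch). The 10 spike-ins, 7 of them calibrators, were left out of miR totals.

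Samples were grouped by treatment and day from the labels. The members, lists and tests were chosen with earlier results of these data known. Counts were fitted with edgeR (4.0.16, quasi-likelihood, R 4.3.3), TMM, a mean per group and no filter beyond 1 count, in the 10 libraries that the supplement lists. Tests were two-sided, with Benjamini-Hochberg adjustment over all miRs and a threshold of 0.05. The direction and size of fitted changes were checked on counts simulated with the same spread for every miR. That check does not show error rates for these libraries. Levels are CPM. Standard errors were derived from the F statistic, and for miR-378a-3p in the 10 libraries they were larger when rarely counted miRs were filtered out. The permutation test exchanged day labels within treatments on log2 CPM with a prior count of 2. Alternatives were all 12 libraries, other scalings and filters, DESeq2 (1.42.0), limma-voom (limma 3.58.1), a replicate block and leaving out each library.

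Named were the members, miR-378a-5p, any miR with a member's seed, the 5 miRs most correlated with miR-378a-3p, its neighbours in mean level, and of the metabolic list those called, here or by the study, and the 3 most abundant. Marker miRs were listed for muscle (6), heart (1), liver (3), erythrocytes (5) and leukocytes and platelets (5). Of these, 6, 1, 1, 1 and 1 are also in the metabolic list. Reads carry no molecular identifiers in the table, so intervals cover counting error only. The labels number the libraries of a group as biological replicates.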

Additional observations from a re-analysis of the deposited data

Results flagged for a closer look

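Both libraries that the supplement does not list carried more miR-378a-3p than most listed ones. In rapamycin day 7 replicate 2 it stood at 9743 CPM, between the listed rapamycin libraries of that day, at 4194 and 11803 CPM. In vehicle day 7 replicate 1 it stood at 18415 CPM, against 2652 and 3660 CPM in the listed vehicle libraries of that day. Both are data outside the fit of 10 libraries. miR-378b stood at 997 CPM in vehicle day 7 replicate 1, against 22.3 and 303 CPM in the listed vehicle libraries. These libraries also held 5.53 and 12.8 miR counts per calibrator count, against at most 1.58 in the listed ones, and the second of them held 8881 CPM of muscle-enriched miRs. Erythrocyte miRs summed to 60308 and 27070 CPM in them, against at least 114629 CPM in every listed library. The part of these differences in the levels of the family was not tested.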

How the results depend on the processing

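The treatment difference of miR-378a-3p at day 7 was 0.053 (log2) in all 12 libraries against 1.39 in the 10, and ran from 0.49 to 1.98 when 1 of the 10 was left out. At day 21 it ran from -1.44 to -0.086. For miR-378b at day 7 the sign turned in all 12 libraries (-0.87) and with a replicate block in all 12 (-0.15), and leaving out 1 library gave -1.29 to 3.17. It could not be computed where a filter removed the miR. No fold change was given for miR-378b at day 21 (at most 2 counts per library) or for miR-378a-5p (at most 4), and no block could be fitted at day 7 in the 10 libraries.

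The fall of miR-378a-3p between days was called with all 12 libraries (-1.77) and with calibrator counts as library size (-1.37). In these fits the median of all miRs was -0.57 and -0.50, against -0.054 in the main fit. The fall ran from -1.46 to -0.59 when 1 of the 10 was left out, with 3 of 10 fits past the threshold. Settings added after the 12-library values were seen gave -1.89 with DESeq2 size factors and -2.00 without scaling. They gave -4.40 with calibrator counts, where the median of all miRs was -2.06, and -2.22 to -1.07 leaving out 1 of the 12. For miR-378b the adjusted p from edgeR was 0.00152 in all 12, 0.0652 to 1.00 leaving out 1 of the 10 and 0.000342 to 0.0916 leaving out 1 of the 12. In the 12 it was 0.000629 with DESeq2 size factors, 0.000311 without scaling, 2.32e-05 with calibrator counts, 0.0279 with DESeq2's Wald test and 0.107 with limma-voom. The cause was not tested.

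At day 7, 2 miRs were called in the 10 libraries (14 at an unadjusted p under 0.05). The count was 1 with DESeq2 size factors or no scaling, 8 in fits of that day alone, 0 to 6 leaving out 1 library, and 0 with all 12 libraries, calibrator counts, filterByExpr, at least 10 counts, DESeq2's Wald test, limma-voom or the block in 12, where 2 to 42 had an unadjusted p under 0.05. At day 21, 0 were called (15 unadjusted), 1 with the abundance cutoff and 0 to 4 leaving out 1 library. Between days 1 was called, 15 in all 12, 5 with calibrator counts, 5 with the abundance cutoff, 0 with filterByExpr, at least 10 counts, DESeq2's Wald test or limma-voom (2 to 57 unadjusted), and 1 to 13 leaving out 1 library. In the 12 it was 20 with DESeq2 size factors, 28 without scaling, 108 with calibrator counts, which moved the median of all miRs to -2.06, 4 with DESeq2's Wald test, 0 with limma-voom (90 unadjusted) and 7 to 23 leaving out 1 library.

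Replicate numbers are shared by the groups, but the same-numbered libraries did not deviate together (r from -0.48 to -0.02 across miRs in the 10 and from -0.78 to 0.31 in the 12). With the replicate block the difference of miR-378a-3p was 0.63 at day 7 in the 12, and at day 21 -0.66 in the 10 and -0.79 in the 12, with 0 miRs called in each. At 19 to 277 counts per listed library for miR-378a-3p and 0 to 12 for miR-378b, depth limits the second far more than the first.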
